A study of Mus musculus with 8 samples.

Results

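The genes of cholesterol and fatty-acid synthesis were examined by array in mouse B-lymphoid cells, with 4 c-jun knock out samples and 4 of wild type. The list held 34 genes, chosen by name for their place in the pathway and with earlier results of these data known. They were 18 enzymes of the sterol branch, 10 enzymes of fatty-acid synthesis, desaturation and elongation, and 6 regulators. Of these, 33 were measured among 19937 genes by a probe set with a single gene symbol. Acat2, the cytosolic thiolase at the head of the sterol branch, had no such probe set, so 17 sterol enzymes were measured.

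All samples had the strain label SW129/C57BL/6J and were hybridized 1 per Affymetrix MoGene 1.0 ST array, which carries probes along the length of each transcript. The series concerns lymphoid leukemia driven by the fusion kinase BCR-ABL and the role of the transcription factor c-JUN at the cell-cycle kinase gene Cdk6. Titles starting with RO belong to replicates 1 and 2 of each genotype. Replicates 3 and 4 are titled with D (knockout) or F (wild type) and are called the D/F samples here. The labels name no agent, age or time and do not call the title series batches. Whether the cells carried BCR-ABL, how Jun was deleted, and whether cultures or animals were separate is not in the labels used. A p-value here thus reflects only the scatter among these samples, part of which may be technical.

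Animal cells build cholesterol from acetyl-CoA through mevalonate, squalene and lanosterol, and build fatty acids from the same precursor through malonyl-CoA. Genes of both branches are switched on by the SREBP transcription factors, with SREBP-2, from Srebf2, acting mostly on sterol genes and SREBP-1, from Srebf1, mostly on fatty-acid genes. When sterols are low the escort protein SCAP carries SREBP from the endoplasmic reticulum to the Golgi for cleavage, and INSIG proteins hold the complex back when sterols are plentiful. Growing lymphoid cells draw on both branches for new membrane.

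Jun, the targeted gene (probe set 10514466), had log2 signals of 6.99, 6.46, 7.02 and 6.97 in the knockout samples, replicates 1 to 4, against 8.82, 8.84, 10.55 and 8.77 in the wild-type ones. The genotypes did not overlap, with the knockout samples lower and a difference of -2.38 (SE 0.32, limma adjusted p = 0.106). The B-lineage markers were high on every array: all 8 measured markers, among them the B-cell receptor components Cd79a and Cd79b and the surrogate light chain gene Igll1, lay above the median gene of each array. Of the 8 myeloid markers, 6 lay below the median gene on every array, as did 5 of 7 T and NK markers, 2 of 3 erythroid, 2 of 5 stromal and 6 of 7 adipocyte and hepatocyte markers. The other 3 stromal markers, the collagen genes Col1a1, Col1a2 and Col3a1, lay above the median gene on every array. The median gene signal of an array ran from 7.19 to 7.47 in knockout samples and from 7.24 to 7.72 in wild-type samples, with wild-type replicates 1 and 3 highest at 7.72 each. These are measurements of bulk RNA, in which fewer cells of a type and less RNA per cell cannot be told apart.

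The lipid-synthesis genes were mostly strongly expressed, and 32 of the 33 lay above the median gene on every array. Averaged over the 8 samples, the desaturases Scd1 and Scd2 had log2 signals of 12.38 and 12.23 and fatty-acid synthase, Fasn, 12.11. The malic enzyme gene Me1, which supplies NADPH, was the exception, with a mean of 6.97 and signals on both sides of the array medians. Probe sets differ in affinity, so these values describe the signal of each probe set and do not order the genes by transcript level.

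Between genotypes, 0 of the 33 genes passed the Benjamini-Hochberg threshold of 0.05 in limma, a linear model fitted across all genes with genotype and title series as terms. Of all genes tested, 0.00502% passed, and Jun, the targeted gene, did not. With an unadjusted limma p under 0.05, 1 gene was higher in knockout samples, the sterol dehydrogenase gene Nsdhl, and 0 lower, against 0.537% and 1.72% of all genes. The count of 1 was 4 without knockout replicate 4, 2 without wild-type replicate 4, and 0 without any 1 of the other 6 samples. The share of all genes was no steadier, since 342 genes were lower with all samples and 4584 without wild-type replicate 4. In 16 of the 33 genes the difference was positive, against 28% of all genes, and in 17 negative, against 72%, and the median over all genes was -0.113. These shares include dim genes. Over only genes with a mean signal above that of the median gene, which hold 32 of the 33, the median was -0.0281. The median log2 difference, knockout minus wild type, was 0.0453 over the 17 sterol enzymes, -0.0693 over the 10 fatty-acid enzymes and 0.0824 over the 6 regulators. With 1 sample left out, the sterol median was lowest, -0.0157, when that was knockout replicate 1, and highest, 0.153, when it was wild-type replicate 3. The fatty-acid median was then lowest, -0.168, and was highest, 0.0478, when wild-type replicate 1 was left out. In 0 of the 33 genes did all 4 knockout samples lie beyond all 4 wild-type samples in either direction, against 0.266% of all genes upward and 1.03% downward.

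The largest positive genotype differences among sterol enzymes were 0.47 for Nsdhl, 0.35 for Msmo1, 0.33 for Idi1 and 0.31 for Hmgcs1. Leaving out wild-type replicate 1 alone lowered these to 0.296, 0.151, 0.166 and 0.131. The next were 0.13 for Cyp51, 0.13 for Dhcr7, 0.09 for Sqle, 0.09 for Hsd17b7, 0.05 for Fdft1 and 0.04 for Ebp, each smaller than its SE. The 7 negative ones, also smaller than their SE, were -0.01 for Fdps, -0.01 for Sc5d, -0.05 for Mvk, -0.07 for Pmvk, -0.07 for Lss, -0.09 for Mvd and -0.14 for Tm7sf2. None of the 17 was thus lower in knockout samples by more than 1 SE. Among fatty-acid enzymes Scd2 had 0.24, Elovl5 0.14 and Acaca 0.06, while Acly had -0.05, Elovl6 -0.07, Scd1 -0.07, Fasn -0.14, Me1 -0.22, Fads1 -0.29 and Fads2 -0.93. Among regulators Stard4 had 0.25, Insig2 0.22 and Insig1 0.20, while Srebf2 had -0.04, Scap -0.06 and Srebf1 -0.18. Single samples also carried the value of Scd2, 0.0787 without wild-type replicate 4, and that of Stard4, 0.0774 without knockout replicate 1.

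**Figure D1:**
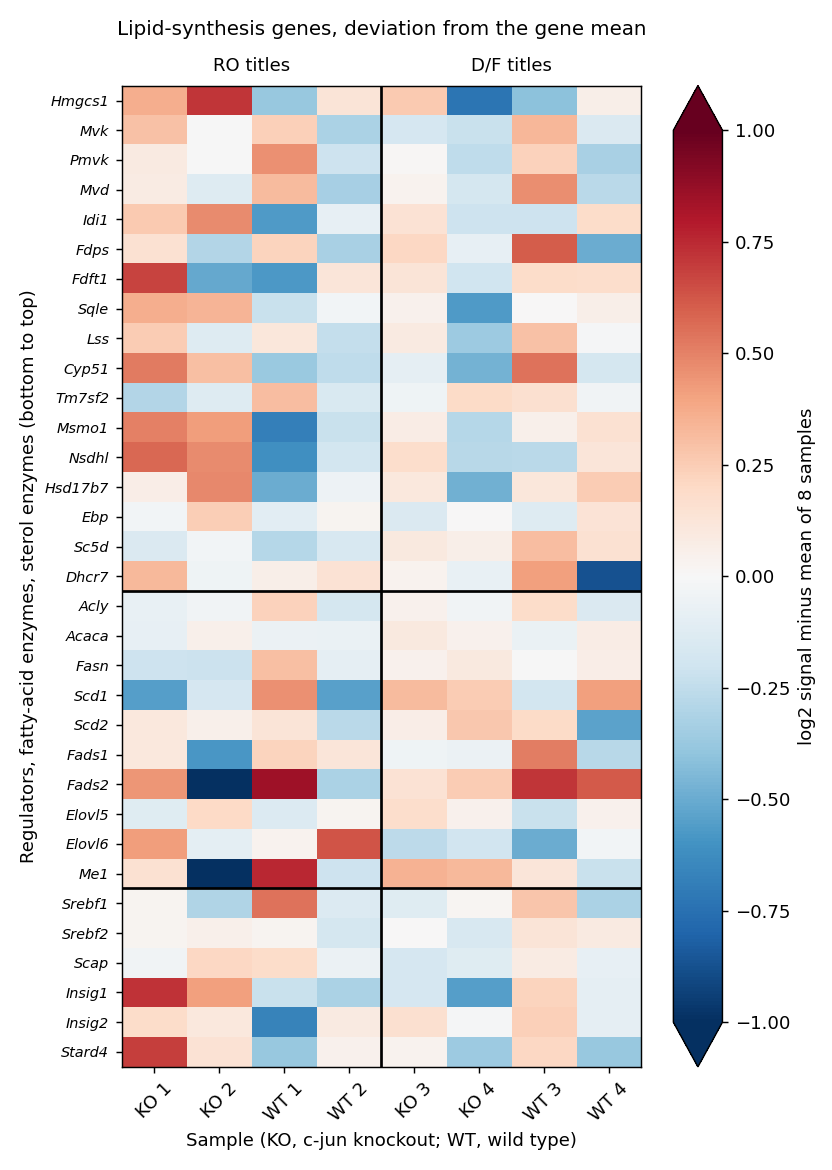
Deviation of the log2 signal from the mean of 8 samples (colour) for 33 genes (rows: sterol enzymes at the top, fatty-acid enzymes in the middle, regulators at the bottom) in each sample (columns, KO for c-jun knockout and WT for wild type, RO titles left and D/F titles right). Many sterol enzymes, Insig1 and Stard4 are red in knockout replicates 1 and 2, and Fads2 and Me1 are darkest blue in knockout replicate 2; colours end at 1 and -1.

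The differences had unlike signs in the 2 title series. Of the 17 sterol enzymes, 13 had a positive knockout minus wild-type difference among RO samples, and 4 did among D/F samples. Over the 33 genes the counts were 21 and 11, where 26.5% and 52.4% of all genes were positive. The median difference of the sterol enzymes was 0.183 in the RO samples, where that of all genes was -0.249, and -0.153 in the D/F samples, where that of all genes was 0.0097. The fatty-acid enzymes had the other order, with medians of -0.243 for RO and 0.0527 for D/F, although the RO median turned positive, at 0.0815, with arrays centred on their medians. Over only genes with a mean above the median gene, the median of all such genes was -0.0264 for RO and -0.0192 for D/F. The RO median of the fatty-acid enzymes was then -0.170 and that of the sterol enzymes 0.183. With 1 sample left out, the RO fatty-acid median was -0.374 when this was wild-type replicate 2, -0.0582 when it was wild-type replicate 1 and -0.0662 when it was knockout replicate 2. The RO sterol median was 0.305 without wild-type replicate 1 and 0.330 without knockout replicate 2. The D/F sterol median was -0.274 without knockout replicate 3, -0.266 without wild-type replicate 4 and -0.0526 without knockout replicate 4. The D/F fatty-acid median was 0.106 without wild-type replicate 4. None of these within-series differences passed the adjustment over all genes for any of the 33 genes (limma, 0 called in either series, against 0.0401% of all genes for RO and 0.00502% for D/F).

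With that unadjusted p, RO knockout samples had 5 genes higher and 0 lower, Msmo1, Insig1, Nsdhl, Idi1 and Cyp51, against 2.15% of all genes higher and 6.24% lower. Without wild-type replicate 1 the count was 3 higher, and without wild-type replicate 2 it was 10 higher and 5 lower. In the D/F samples there were 0 in each direction, against 0.868% and 1.02% of all genes. Both RO knockout samples lay above both RO wild-type samples in 11 genes, 8 of them sterol enzymes and 3 regulators, against 8.71% of all genes. Both lay below in 2, Fasn and the desaturase gene Fads1, against 45.5% of all genes. In the D/F samples both knockout samples lay below both wild-type samples in 8 genes, against 10.5% of all genes, and above in 2, Elovl5 and Me1, against 9.57%. The order was RO knockout above and D/F knockout below in 3, Hsd17b7, Sc5d and Insig1, against 2.14% of all genes, and the reverse in 0, against 3.67%. These orders depend on the scaling: both RO knockout samples were above in 9 genes after quantile normalization and in 23 with arrays centred on their medians, against 14% and 30.2% of all genes. Both D/F knockout samples were below in 4 and in 8 genes under the same scalings, against 16.5% and 13.1% of all genes. The opposite order in the 2 series was then found in 2 genes, without Sc5d, and in 6, without Hsd17b7, against 2.83% and 4.48%, and Insig1 was in each count. The scaling of the arrays bears on how many of all genes had an unadjusted limma p under 0.05 in each direction in the RO samples. There were 428 higher and 1245 lower as deposited, 530 and 638 after quantile normalization and 1165 and 415 with arrays centred on their medians. The 33 genes gave 5 and 0, 4 and 0, and 8 and 0 under the same 3 scalings. Over only genes with a mean above the median gene, 316 were higher and 305 lower as deposited, with 5 and 0 of the listed genes. The shares of genes without overlap, the 45.5% included, were taken over all genes, dim ones among them.

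**Figure D2:**
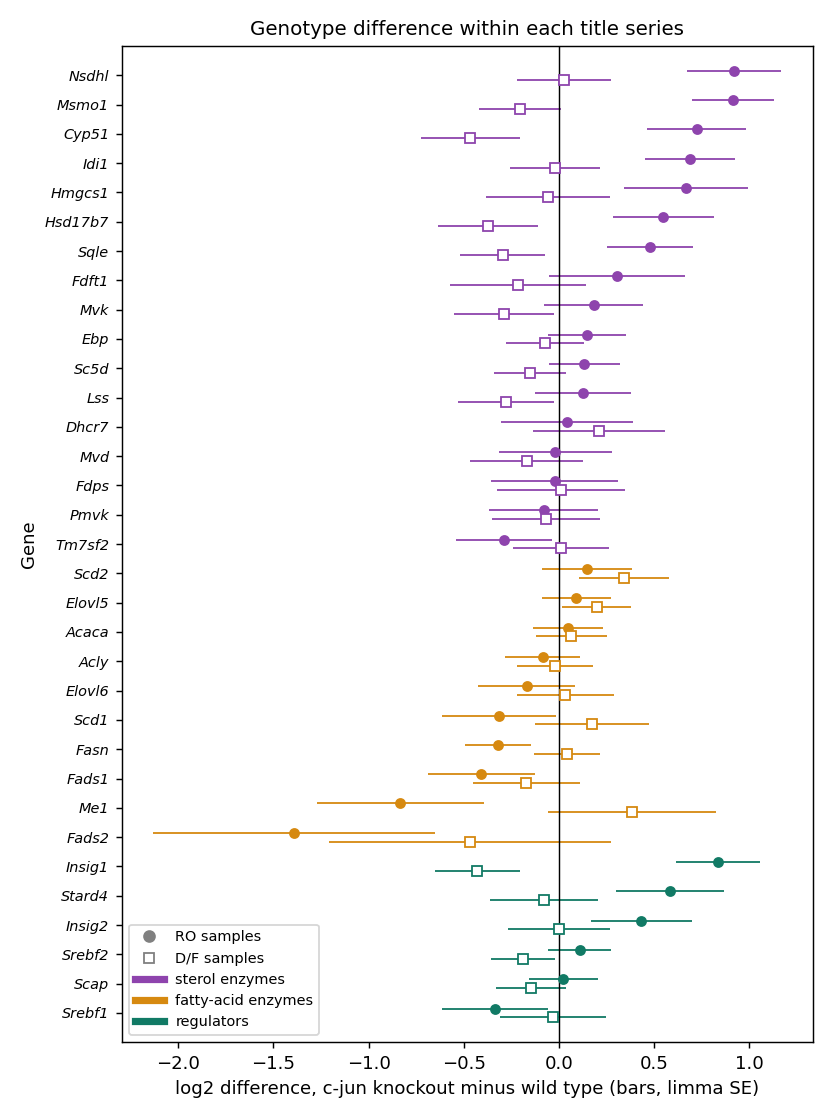
log2 difference, c-jun knockout minus wild type, with limma SE (horizontal axis) for each of 33 genes (vertical axis), in RO samples (filled circles) and D/F samples (open squares), coloured by branch. Nsdhl, Msmo1 and Insig1 lie furthest right among RO differences at 0.92, 0.91 and 0.84, while their D/F differences are 0.02, -0.21 and -0.43.

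The interaction of genotype and title series, which is the RO difference minus the D/F difference, was positive in 13 of 17 sterol enzymes, in 5 of 6 regulators and in 0 of 10 fatty-acid enzymes, against 28.4% of all genes. It passed the adjustment in 0 of the 33 genes, against 0.0301% of all genes. With an unadjusted p under 0.05 it was positive in 6 genes, Insig1, Msmo1, Cyp51, Nsdhl, Hsd17b7 and Sqle, and negative in 0, against 1.96% and 3.42% of all genes. The count of 6 was 3 without wild-type replicate 1, without wild-type replicate 4 or without knockout replicate 4. With all samples kept, it was 3 after quantile normalization and 7 with arrays centred on their medians, with 0 negative in each. Of all genes, 471 and 784 were then positive with that unadjusted p. As deposited, the median interaction was 0.473 over the sterol enzymes, -0.220 over the fatty-acid enzymes and -0.256 over all genes. With 1 sample left out, the sterol median was lowest, 0.295, without knockout replicate 4, and the fatty-acid one lay between -0.339 (without wild-type replicate 2) and -0.126 (without knockout replicate 2). With arrays centred on their medians these were 0.815, 0.122 and 0.0865, so the negative fatty-acid interaction depends on the scaling. Over only genes with a mean above the median gene, the medians were 0.473 for sterol enzymes, -0.204 for fatty-acid enzymes and -0.0141 for all such genes.

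The arrays with the highest and the lowest signal were counted for these genes. Knockout replicate 1 or 2 was the highest array for 12 of the 33 genes, 8 of them sterol enzymes and 1 a fatty-acid enzyme, against 14.5% of all genes. The lowest array was wild-type replicate 1 for 7 genes, 6 of them sterol enzymes, against 12.5% of all genes, and knockout replicate 4 for 5, against 4.71%. Knockout replicate 2 was lowest for 4, all fatty-acid enzymes, a smaller share than the 31.4% of all genes. These shares were taken over all genes as deposited, dim ones included, and were not counted again under another scaling. The median gene signal was 7.19 in knockout replicate 2 and 7.72 in wild-type replicate 1.

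Among the regulators, Insig1 (probe set 10520362), which retains the SCAP and SREBP complex in the endoplasmic reticulum and is itself an SREBP target, differed most between the title series. Its log2 signals were 11.11 and 10.80 in RO knockout samples, against 10.16 and 10.07 in RO wild-type samples, and 10.22 and 9.83 in D/F knockout samples, against 10.61 and 10.30 in D/F wild-type samples. The genotypes did not overlap in either series, and the order was opposite. The difference was 0.84 (SE 0.22, 1.79-fold) in RO and -0.43 (SE 0.22) in D/F samples, with an interaction of 1.27 (SE 0.31, limma adjusted p = 0.680). Insig2, its paralogue, had a difference of 0.43 in RO samples, where wild-type replicate 1 was lowest at 8.87, and close to 0 in D/F samples. Stard4 (probe set 10458033), a soluble sterol carrier, had signals of 10.72, 10.18, 10.07 and 9.67 in knockout replicates 1 to 4, against 9.66, 10.08, 10.24 and 9.66 in wild-type replicates 1 to 4. Its RO samples did not overlap by genotype and its D/F samples did.

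Srebf2 and Scap varied less. Srebf2 (probe set 10425695) had signals of 11.80, 11.83, 11.78 and 11.62 in knockout replicates 1 to 4, against 11.81, 11.60, 11.91 and 11.87 in wild-type replicates 1 to 4. The difference was 0.11 (SE 0.17) in RO samples, where the genotypes overlapped, and -0.19 (SE 0.17) in D/F samples, where they did not. The RO difference was smaller than its SE, so its sign is uncertain. Scap (probe set 10589511) had 11.43, 11.68, 11.30 and 11.35 in knockout samples, against 11.65, 11.41, 11.56 and 11.39 in wild-type samples, with overlap in the RO samples. Srebf1 (probe set 10386473) had 10.27, 9.94, 10.12 and 10.26 in knockout samples, against 10.79, 10.10, 10.52 and 9.93 in wild-type samples. The genotypes overlapped in both series for Srebf1, and wild-type replicate 1 was its highest sample. Its difference was -0.34 (SE 0.28) in RO and -0.03 (SE 0.28) in D/F samples.

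In the mevalonate arm, Hmgcs1 (probe set 10412466), the synthase of HMG-CoA, had signals of 10.89 and 11.24 in RO knockout samples, against 10.14 and 10.65 in RO wild-type samples. In the D/F samples it had 10.78 and 9.80 in knockout, against 10.11 and 10.58 in wild-type samples, so there the knockout samples lay on either side of the wild-type ones. Its difference over all samples was 0.31 (SE 0.25), but 0.13 when wild-type replicate 1 was left out and 0.58 when knockout replicate 4, its lowest sample, was. Leaving out knockout replicate 2 or 3 gave 0.16 or 0.18. The isomerase gene Idi1 (probe set 10482762) had 11.15 and 11.36 in RO knockout, against 10.32 and 10.80 in RO wild-type samples, and 11.03 and 10.68 in D/F knockout, against 10.68 and 11.07 in D/F wild-type samples. A second Idi1 probe set did not show this, with differences of -0.15 in RO and 0.047 in D/F samples, against 0.69 and -0.02 for the first, so the Idi1 difference depends on the probe set. The kinases Mvk and Pmvk, the decarboxylase Mvd and the farnesyl diphosphate synthase Fdps had RO differences from -0.08 to 0.18 and D/F differences from -0.29 to 0.01, all smaller than 1.5 SE.

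At squalene, Sqle (probe set 10424349), the epoxidase that makes the first oxygenated intermediate, had signals of 11.12 and 11.10 in RO knockout samples, against 10.53 and 10.73 in RO wild-type samples. In the D/F samples it had 10.80 and 10.19 in knockout, against 10.76 and 10.82 in wild-type samples, where knockout replicate 4 stood low. The interaction was 0.77 (SE 0.32, limma adjusted p = 0.716), and 0.47 without that sample. Squalene synthase, Fdft1, was uneven among RO knockout samples, with 10.76 and 9.57, against 9.51 and 10.21 in RO wild-type samples. The cyclase Lss had differences of 0.13 and -0.28 in RO and D/F samples.

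Of the 6 sterol enzymes with RO differences above 0.5, 4 act between lanosterol and cholesterol. Msmo1 (probe set 10578916), the sterol C4-methyl oxidase, had 11.27 and 11.19 in RO knockout, against 10.09 and 10.55 in RO wild-type samples, and 10.85 and 10.48 in D/F knockout, against 10.82 and 10.92 in D/F wild-type samples. The RO groups were apart by more than the gap within either, while the D/F groups overlapped. Its RO difference was 0.91 (SE 0.22, 1.88-fold, limma adjusted p = 0.485), and its interaction was 1.12 (SE 0.31, limma adjusted p = 0.716).

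Nsdhl (probe set 10600082), the dehydrogenase of the next demethylation step, had 10.65 and 10.55 in RO knockout, against 9.46 and 9.89 in RO wild-type samples, and 10.26 and 9.80 in D/F knockout, against 9.81 and 10.20 in D/F wild-type samples. Over all samples it averaged 10.31 ± 0.38 in knockout and 9.84 ± 0.30 in wild-type samples (SD, n = 4 each), a difference of 0.47 (SE 0.21, limma adjusted p = 0.878) that was 0.296 without wild-type replicate 1. Hsd17b7 (probe set 10359917), the ketoreductase of the same complex, had 10.003 and 10.42 in RO knockout, against 9.44 and 9.88 in RO wild-type samples, and 10.04 and 9.45 in D/F knockout, against 10.05 and 10.19 in D/F wild-type samples. The order of the genotypes in Hsd17b7 was thus opposite in the 2 series, with no overlap in either, although the nearest D/F samples were almost level and overlapped with arrays centred on their medians.

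Cyp51 (probe set 10527920), the lanosterol 14-alpha demethylase, had 10.56 and 10.35 in RO knockout, against 9.67 and 9.79 in RO wild-type samples, and 9.96 and 9.58 in D/F knockout, against 10.59 and 9.87 in D/F wild-type samples. Its difference was 0.72 (SE 0.26) in RO and -0.46 (SE 0.26) in D/F samples, with an interaction of 1.19 (SE 0.37, limma adjusted p = 0.716). Sc5d (probe set 10592585), the C5-desaturase, had a narrow range, with 10.24, 10.35, 10.48 and 10.44 in knockout replicates 1 to 4, against 10.10, 10.23, 10.69 and 10.54 in wild-type replicates 1 to 4. The remaining genes of this arm, Tm7sf2, Ebp and Dhcr7, had RO differences of -0.29, 0.15 and 0.04 and D/F differences of 0.01, -0.07 and 0.21, and in Dhcr7, the last reductase, wild-type replicate 4 was lowest at 8.88.

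**Figure D3:**
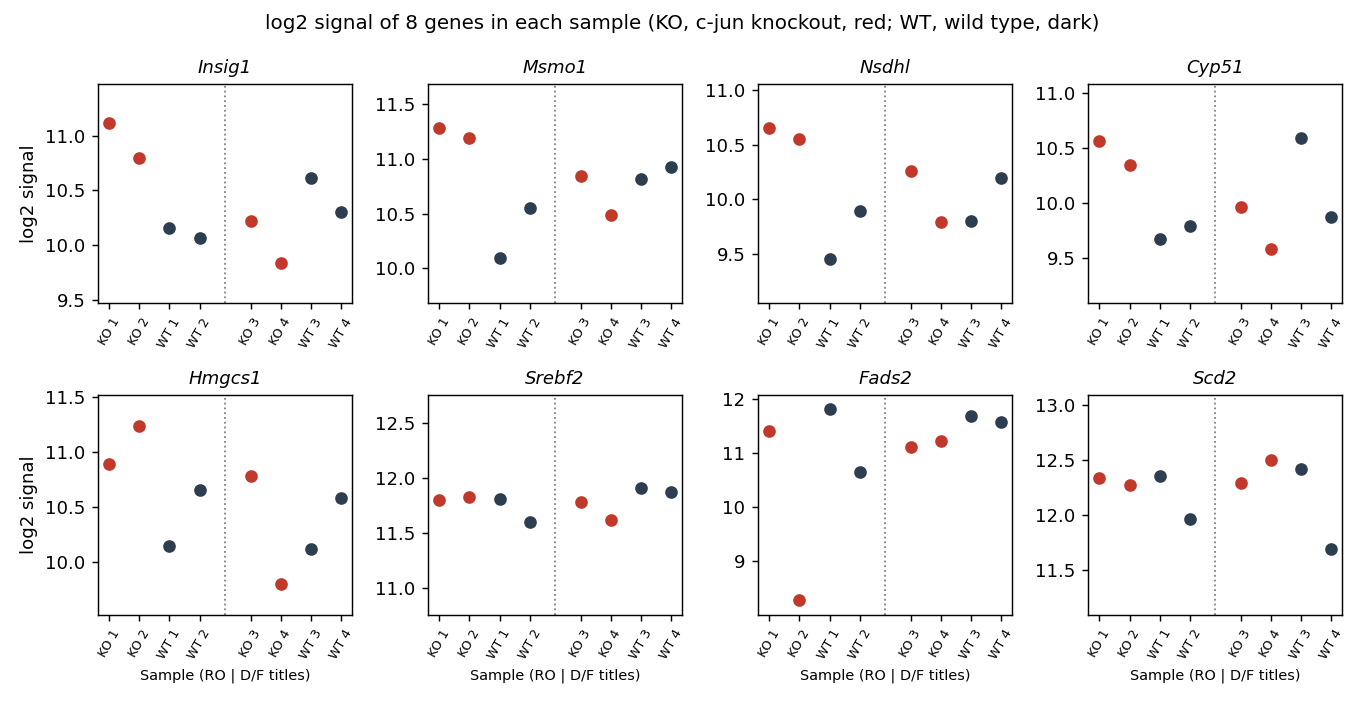
log2 signal (vertical axes, at least 2 units each) of 8 genes in each sample, c-jun knockout in red and wild type in dark, RO titles left and D/F titles right of the dotted line. Insig1, Msmo1, Nsdhl, Cyp51 and Hmgcs1 are above wild type in both RO knockout samples, Srebf2 spans 11.60 to 11.91, and Fads2 has 1 low sample, knockout replicate 2 at 8.28.

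Promoters were read because several of these genes shared their high and low samples. Of the 34 listed genes, 27 had a promoter in the RefSeq table of GRCm38.p6, Acat2 included, given as 250 bases before the transcription start and 50 after it. Both strands were searched for TCACNCCAC, a spelling of the sterol regulatory element bound by SREBP, for CCAAT, bound by its partner NF-Y, for the E-box CACGTG, which SREBP-1 can bind, and for TGANTCA, the AP-1 element to which c-JUN binds. No spelling contains another, and a gene with several starts was counted if any window matched. The 27 listed genes had 36 windows, and the 27025 genes in the table had 32851. Among the regulators Insig2, Scap and Srebf1 had several windows, which gives more room for a match. CCAAT was found in 14 of 15 sterol enzymes (93.3%), 4 of 7 fatty-acid enzymes (57.1%) and 4 of 5 regulators (80%), against 41.1% of 27025 genes in the table. TCACNCCAC was found in 1 sterol enzyme, Hmgcs1, in 0 fatty-acid enzymes and in 0 regulators, against 1.44% of all. TGANTCA was found in 2 sterol enzymes, Msmo1 and Dhcr7, in 1 fatty-acid enzyme, Me1, and in 0 regulators, against 8.97% of all, and CACGTG in 3, 1 and 2, against 8.09% of all. These are matches of letters and not measured sites.

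The 250 bases before the start are shown for Hmgcs1, the match to the sterol element, and for Insig1, Msmo1 and Nsdhl, which had the largest positive RO differences. Capitals mark every match to the 4 spellings.
Hmgcs1 (chr13:119690101-119690350, plus strand): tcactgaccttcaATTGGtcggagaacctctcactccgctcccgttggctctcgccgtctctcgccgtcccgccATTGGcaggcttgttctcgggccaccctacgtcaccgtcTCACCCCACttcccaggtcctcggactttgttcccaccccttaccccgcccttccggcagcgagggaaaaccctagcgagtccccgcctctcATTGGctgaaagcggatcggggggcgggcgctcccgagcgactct
Insig1 (chr5:28071162-28071411, plus strand): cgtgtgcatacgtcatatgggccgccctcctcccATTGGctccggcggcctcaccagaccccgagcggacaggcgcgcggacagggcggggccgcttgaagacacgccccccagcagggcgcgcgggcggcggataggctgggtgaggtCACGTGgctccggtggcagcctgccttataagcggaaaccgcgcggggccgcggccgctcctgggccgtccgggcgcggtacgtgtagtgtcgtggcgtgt
Msmo1 (chr8:64733579-64733828, minus strand): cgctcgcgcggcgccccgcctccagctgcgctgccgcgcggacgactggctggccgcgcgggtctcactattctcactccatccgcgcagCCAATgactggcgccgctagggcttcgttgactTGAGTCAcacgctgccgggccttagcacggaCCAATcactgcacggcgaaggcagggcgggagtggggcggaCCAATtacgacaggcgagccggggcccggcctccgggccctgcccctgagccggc
Nsdhl (chrX:72918271-72918520, plus strand): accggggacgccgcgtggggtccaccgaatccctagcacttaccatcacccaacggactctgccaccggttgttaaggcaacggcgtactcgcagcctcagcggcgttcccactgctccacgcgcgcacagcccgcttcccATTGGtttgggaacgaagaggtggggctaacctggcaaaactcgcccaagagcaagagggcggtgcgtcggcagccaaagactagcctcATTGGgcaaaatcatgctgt
In Hmgcs1 the sterol element TCACCCCAC begins 137 bases before the start, between CCAAT matches on the reverse strand that begin 176 and 45 bases before it. Insig1 has a reverse CCAAT match 216 bases and an E-box 101 bases before the start. Msmo1 has 3 forward CCAAT matches, 160, 96 and 55 bases before the start, and the AP-1 spelling TGAGTCA at 127. Nsdhl has reverse CCAAT matches at 109 and 20 bases.

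Among the fatty-acid enzymes, several were lowest in knockout replicate 2 or highest in wild-type replicate 1. Fads2 (probe set 10465895), the delta-6 desaturase of polyunsaturated fatty acids, had 11.42, 8.28, 11.12 and 11.23 in knockout replicates 1 to 4, against 11.82, 10.66, 11.69 and 11.59 in wild-type replicates 1 to 4. Knockout replicate 2 stood alone, and the difference over all samples, -0.93 (SE 0.53, limma adjusted p = 0.878), was -0.21 without that sample and -1.46 without knockout replicate 1. Without knockout replicate 1, which leaves knockout replicate 2 as the only RO knockout sample, Fads2 was called in the RO samples (difference -2.96, limma adjusted p = 0.00577), with the lone sample assumed to vary like the others. Its neighbour Fads1 (probe set 10461439), the delta-5 desaturase, had 11.32, 10.63, 11.17 and 11.16 in knockout samples, against 11.43, 11.33, 11.73 and 10.94 in wild-type samples, and knockout replicate 2 was lowest there too.

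Fads3, the next gene in that chromosome 19 cluster and outside the list of 34, had 7.10, 7.07, 7.44 and 7.52 in knockout samples, against 8.94, 7.41, 7.44 and 9.75 in wild-type samples (difference -1.10, SE 0.44, limma adjusted p = 0.878). Its higher mean in wild-type samples rested on replicates 1 and 4. Me1 (probe set 10405753) had 7.12, 5.69, 7.31 and 7.29 in knockout samples, against 7.72, 6.76, 7.09 and 6.75 in wild-type samples. Knockout replicate 2 was again lowest, its interaction was -1.22 (SE 0.62, limma adjusted p = 0.716) but -0.50 without that sample, -0.73 without wild-type replicate 1 and -1.93 without knockout replicate 1, and the signal near the bottom of the scale makes its size uncertain. A second Me1 probe set had -0.50 in RO and -0.23 in D/F samples, so the positive D/F difference of 0.38 was not shared.

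The stearoyl-CoA desaturases, which make monounsaturated fatty acids, differed from each other. Scd2 (probe set 10463355) had 12.34, 12.28, 12.30 and 12.50 in knockout samples, against 12.36, 11.96, 12.42 and 11.69 in wild-type samples, a narrower range in knockout samples. Scd1 (probe set 10467979) had 11.83, 12.21, 12.70 and 12.64 in knockout samples, against 12.84, 11.84, 12.20 and 12.79 in wild-type samples, with no order by genotype. Elovl6 (probe set 10495993), which elongates saturated and monounsaturated chains, had 12.09, 11.57, 11.41 and 11.48 in knockout samples, against 11.70, 12.29, 11.17 and 11.64 in wild-type samples. Elovl6 was among the 2 genes with an unadjusted limma p under 0.05 between title series, D/F minus RO, at -0.49 (SE 0.18), and Sc5d was the other at 0.31 (SE 0.13). That difference was positive in 15 of the 33 genes, against 63.8% of all genes. Of all genes, 1.66% were lower and 1.46% higher in that comparison, and 0 of the 33 passed the adjustment, against 0.0201% of all genes.

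The remaining fatty-acid enzymes had narrower ranges. Acly, which makes cytosolic acetyl-CoA for both branches, ran from 11.36 to 11.48 in knockout samples and from 11.26 to 11.67 in wild-type samples. Acaca, the acetyl-CoA carboxylase, ran from 10.34 to 10.51 in knockout and from 10.35 to 10.49 in wild-type samples, although a second probe set had an RO difference of 0.51 against 0.047. Fasn ran from 11.89 to 12.21 in knockout and from 12.02 to 12.41 in wild-type samples, with an RO difference of -0.32 (SE 0.17). The elongase Elovl5 ran from 11.83 to 12.15 in knockout and from 11.73 to 11.99 in wild-type samples.

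The sterol branch was then set against the fatty-acid branch within each array, which removes the array's scaling constant. The mean of the 17 sterol enzymes was 10.20 and 10.09 in RO knockout samples, against 9.81 and 9.84 in RO wild-type samples, and 10.02 and 9.72 in D/F knockout samples, against 10.12 and 9.90 in D/F wild-type samples. The mean of the 10 fatty-acid enzymes was 11.15 and 10.66 in RO knockout, against 11.41 and 11.05 in RO wild-type samples, and 11.23 and 11.24 in D/F knockout, against 11.21 and 11.13 in D/F wild-type samples. The sterol minus fatty-acid mean was -0.95 and -0.57 in RO knockout samples, against -1.60 and -1.21 in RO wild-type samples, so the RO genotypes did not overlap. In the D/F samples it was -1.21 and -1.52 in knockout, against -1.09 and -1.23 in wild-type samples, which overlapped. The knockout minus wild-type difference of this quantity came to 0.65 among RO samples, against -0.20 among the D/F ones, beside a pooled SD within groups of 0.23. In RO samples the sterol mean differed by 0.322 and the fatty-acid mean, whose genotypes overlapped, by -0.324. Fads2 and Me1, lowest in knockout replicate 2, had the largest negative RO differences, -1.39 and -0.83. The RO value was 0.453 without that sample, 0.448 without wild-type replicate 1, 0.843 without wild-type replicate 2, and 0.566 with the median over genes. The D/F value was -0.354 without knockout replicate 3, -0.0450 without knockout replicate 4, and -0.0135 with the median over genes in place of the mean. As the genes were chosen with earlier results known, no p is given for it.

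**Figure D4:**
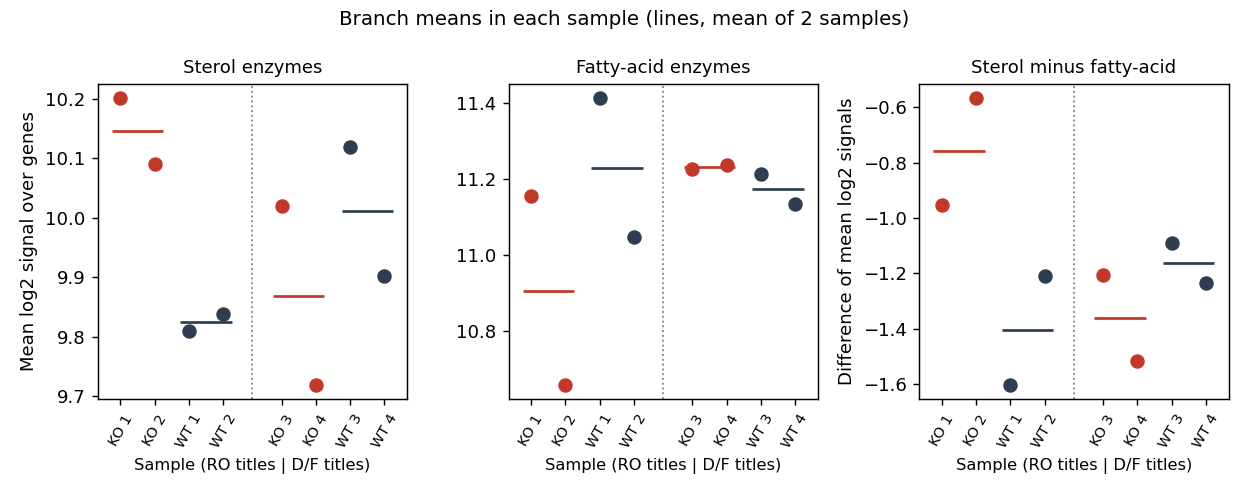
Mean log2 signal of 17 sterol enzymes, mean of 10 fatty-acid enzymes, and the first minus the second (vertical axes), in each sample, c-jun knockout in red and wild type in dark, lines at the mean of 2 samples, RO titles left of the dotted line. The 2 RO knockout samples have the highest sterol minus fatty-acid values, -0.95 and -0.57, and wild-type replicate 1 the lowest at -1.60.

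Among the myeloid markers, Lyz2, the lysozyme gene of macrophages and granulocytes, had 10.63, 10.64, 9.24 and 7.44 in knockout replicates 1 to 4, against 8.33, 8.66, 9.93 and 8.35 in wild-type replicates 1 to 4, where the RO genotypes were apart and the D/F genotypes overlapped (interaction 2.94, SE 0.79, limma adjusted p = 0.716). The other 7 went the other way in the RO samples: 1 of 8 myeloid markers, Lyz2, had a positive RO difference and 7 a negative one, with a median of -0.383, and in 6 both RO knockout samples lay below both wild-type samples. The interaction was negative in 7 of 8. The mean of the 8 markers ran from 6.83 to 6.98 in knockout and from 6.58 to 7.32 in wild-type samples, and the neutrophil genes S100a8 and Elane stayed at 7.59 or lower on every array. The part of such cells in the sterol differences was not tested. The mean of 13 proliferation genes, among them Mki67 and Pcna, ran from 11.97 to 12.25 in knockout and from 11.80 to 12.17 in wild-type samples, with wild-type replicate 1 lowest. Its part was not tested either.

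Other lipid genes gave few differences. Of 25 measured further genes of lipid synthesis, 0 passed the adjustment, as against 0.00502% of all genes, and 1, Fads3, had an unadjusted limma p under 0.05, lower in knockout samples, where 1.72% of all genes were lower. Idh1, a cytosolic source of NADPH, had 0.33 (SE 0.27) and Dgat2, which makes triglyceride, -0.37 (SE 0.32). Of 10 genes of sterol efflux, uptake and storage, 0 passed, and 8 of 10 had a negative difference, a share near the 72% of all genes. The lipoprotein receptor genes Vldlr and Lrp8 had -0.30 (SE 0.20) and -0.20 (SE 0.17), and Nr1h3, which encodes the oxysterol sensor LXR-alpha, had -0.23 (SE 0.20). Of 11 genes of fatty-acid oxidation 0 passed, and 7 had a negative difference. Its 3 genes of smallest p, Decr1, Acadvl and Acadm, had -0.76 (SE 0.45), -0.24 (SE 0.16) and 0.32 (SE 0.23).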

How the data were processed

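The authors deposited log2 signals for 34760 probe sets, 1 column per sample. The submitters' processing notes list MAS5, which uses mismatch probes that this array type lacks, without its settings. On the linear scale the mean with 2% trimmed at each end was 500 on every array, which fixes the mean and not the distribution.

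Gene symbols came from the platform annotation: 21640 had 1 gene symbol, 1321 several and 11799 none. Where a gene had several single-symbol probe sets, the brightest on average was used. The values were fitted as deposited with limma 3.58.1 in R 4.3.3 (lmFit, eBayes with trend) over 19937 genes, with genotype and title series as terms. Interaction and within-series values came from a fit of the 4 groups of genotype by title series. P-values were adjusted by Benjamini-Hochberg over all genes, threshold 0.05. The fit was also run on simulated data with independent noise and no array or title series effect. That run cannot tell how the fit behaves on these arrays. Alternatives were quantile normalization, centring on medians, a filter on dim genes, mean of a gene's probe sets, other eBayes settings, array weights, other handling of title series, and leaving out each sample. Each SE is limma's after moderation. Groups came from the genotype label, and replicates were numbered in order of deposit.

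The genes and lists were chosen with earlier results of these data known. Values in every sample are given for the 8 genes of smallest p for genotype, the 8 for the interaction, the 4 for title series, and Srebf1, Srebf2, Insig1 and Scap. Of each other lipid list the 3 of smallest genotype p are named. Gpam and Hadha were chosen after their values were seen.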

Additional observations from a re-analysis of the deposited data

Results flagged for a closer look

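Of 38 groups of 4 samples examined, covering both genotypes for the 19 genes given in every sample, 2 had a sample far from the other 3 by Dixon's test at its 95% level, which chance gives in about 5% of groups. Both were knockout replicate 2, with a log2 signal of 8.28 for Fads2, where the other knockout samples had 11.12 to 11.42, and of 5.69 for Me1, where they had 7.12 to 7.31.

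In 3 of the 33 genes the RO knockout samples lay above the RO wild-type samples and the D/F knockout samples below the D/F wild-type samples without overlap, against 2.14% of all genes. The RO minus D/F difference was 1.27 for Insig1 (limma adjusted p = 0.680), 0.92 for Hsd17b7 (0.716) and 0.29 for Sc5d (0.716). The opposite pattern was found in 0 of the 33 genes, against 3.67% of all genes. After quantile normalization Sc5d overlapped in both title series, and with arrays centred on their medians Hsd17b7 overlapped in the D/F samples, so among these 3 the order held for Insig1 alone under all 3 scalings.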

How the results depend on the processing

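Of 411 repeats of a result under an alternative, 409 kept their side of the threshold and their direction, or lay within the replicate spread. Most could hardly do otherwise, so this number does not measure how steady the results are. A count of 0 that stayed 0 was among them, as was a D/F value repeated without an RO sample. A value within the spread was kept even if its sign turned, as the fatty-acid median did, from -0.0693 to 0.0839 with arrays centred on their medians. The sterol median of 0.0453 was 0.198 with arrays centred on their medians, where the median of all genes was 0.0404 and not -0.113. With 1 sample left out the sterol median ran from -0.0157 to 0.153, and with array weights it was -0.0293. The number of genes called in the RO samples, 0, ran from 0 to 1 with 1 sample left out. The sterol minus fatty-acid difference in RO samples was lowest, 0.448, when wild-type replicate 1 was left out and highest, 0.843, when wild-type replicate 2 was, and ran from -0.354 to -0.0450 in D/F samples, where the median over genes gave -0.0135, and was 0.609 and -0.164 in the 2 series after quantile normalization. The interaction of Insig1 ran from 1.07 to 1.61 over 16 alternatives, with limma adjusted p from 0.166 to 0.952. The sign of the genotype difference held in 12 of 33 genes under all the alternatives counted for it. Array weights, other eBayes settings and other handling of title series were not among these. The sign of the RO difference held in 15 of 33 genes and that of the D/F difference in 14. Leaving out wild-type replicates 1 and 3 together, and the alternatives for the within-series counts, were chosen after seeing the data. No paired analysis was possible because the labels carry no replicate numbers. With 2 samples of a genotype in each title series, small differences were not detectable, and large ones could be missed. Jun itself, at -2.38 over all samples, did not pass the threshold (limma adjusted p = 0.106). Nor did it pass within the RO samples (-2.10, limma adjusted p = 0.385) or the D/F samples (-2.67, limma adjusted p = 0.239).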

Other observations

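Gpam, the mitochondrial acyltransferase that starts glycerolipid synthesis, and Hadha, a subunit of the mitochondrial trifunctional enzyme of fatty-acid oxidation, had the same arrangement of samples as Insig1 or Cyp51 though they are not sterol genes; both were picked after their values were seen. Gpam had log2 signals of 10.47, 10.60, 9.63 and 9.20 in knockout replicates 1 to 4, against 9.40, 9.80, 10.34 and 9.57 in wild-type replicates 1 to 4. Knockout minus wild type was 0.93 for RO and -0.54 for D/F titles, with an interaction of 1.47 (limma adjusted p = 0.716). Hadha had 11.71, 11.36, 11.02 and 11.13 in knockout samples, against 10.77, 11.14, 11.55 and 11.30 in wild-type samples, with differences of 0.59 and -0.35.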
